A study of Mus musculus with 8 samples.

Results

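The contractile and actin cytoskeleton genes were examined in fibroblasts sorted from infarcted mouse hearts. The set holds 39 of the 54532 genes in the deposited expression table. They were taken by gene symbol from a list of actins, tropomyosins, myosins, calponins and actin-bundling proteins. No cutoff on measured values was applied, but the list was chosen with earlier results of these data known. The study compared 4 libraries labelled FTbR2KO with 4 labelled TbR2fl/fl, all of PDGFRα+ cells sorted by flow cytometry on day 7 of the infarct, after coronary occlusion, and not cultured. FTbR2KO stands for a knockout, restricted to fibroblasts, of TbR2, the type II receptor for TGF-β (gene symbol Tgfbr2). The TbR2fl/fl controls carry the floxed receptor gene. Mice of both groups, controls included, were given tamoxifen by intraperitoneal injection, so tamoxifen is shared and the genotype is the only difference the labels name. The labels give no Cre driver, age or sex, and they do not say that each library is a separate animal, so every p-value measures the spread between these libraries. Libraries 1 to 4 are FTbR2KO and libraries 5 to 8 are TbR2fl/fl.

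Fibroblasts of a healing infarct become myofibroblasts, cells that assemble bundles of actin and non-muscle myosin, anchor them at focal adhesions and pull on the scar. α-Smooth muscle actin, the product of Acta2, is the protein by which myofibroblasts are usually recognised, and TGF-β is the best known signal for its induction. Many genes of the contractile apparatus are transcribed under serum response factor, which binds a DNA element called the CArG box and is helped by cofactors, myocardin in smooth muscle and the myocardin-related factors in many other cells; the latter respond to the pool of unpolymerised actin.

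Levels are given as FPKM, fragments normalised for gene length and for the size of the library, so genes can be set side by side. Reads assigned to genes numbered 16088616 to 22928496 in the FTbR2KO libraries and 21200735 to 28731923 in the controls, so the controls were on the whole deeper. Markers of the sorted cells were high, with Pdgfra at 45.5 to 85.6 FPKM and Col1a1, the main collagen of scar fibroblasts, at 3496 to 5338 FPKM. Of 10 cardiomyocyte markers 8 were under 1 FPKM in every library, and the list summed to 2.74 to 5.53 FPKM in FTbR2KO and 4.13 to 5.61 in control libraries. Of 10 macrophage markers 6 were under 1 FPKM throughout, among them Ptprc and Adgre1, and the list summed to 7.60 to 10.9 FPKM and 8.15 to 11.1 FPKM. Other lists were higher. Markers of pericytes and vascular smooth muscle cells summed to 60.5 to 100.02 FPKM and 65.6 to 92.3 FPKM, epicardial genes to 68.1 to 114.5 FPKM and 41.0 to 85.0 FPKM, and endothelial genes, mostly Tek, to 19.3 to 25.7 FPKM and 18.2 to 28.5 FPKM; their part in the members' levels was not tested. The targeted gene went against its label: Tgfbr2 was at 58.2 ± 1.30 FPKM in the libraries labelled FTbR2KO and 45.5 ± 3.86 in the controls (mean ± SD, n = 4 each). A gene-level FPKM covers the whole gene and does not show the loss of single exons, so the deletion could not be checked, and FTbR2KO below always means the libraries so labelled. Xist was at 0.056 FPKM in FTbR2KO 4 and 0.0215 in TbR2fl/fl 8, against 30.7 to 49.7 FPKM in the other 6 libraries.

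No member of the contractile set passed the test between the genotypes. Acta2 averaged 212 FPKM in FTbR2KO and 239.7 FPKM in control libraries, and the ranges of the groups overlapped for every one of the 39 genes. Of the 38 members that reached 1 FPKM in at least 4 of the 8 libraries (all but Myocd), 16 had a log2 fold change above 0 and 22 below 0, between -0.38 for Tagln and 0.21 for Lpp. The members' median log2 fold change was -0.028, beside -0.0045 over all 11667 genes tested, and it was 0.11 with 26 members above 0 when FTbR2KO 1 was left out. Fold changes are FTbR2KO minus TbR2fl/fl on the log2(FPKM + 1) scale, which understates changes of genes near 1 FPKM, and were tested with limma and Benjamini-Hochberg adjustment over all tested genes. Adjusted p-values of the members ran from 0.571 to 0.998. Across the whole table the same test called 2 genes, 0.0171% of those tested, so 0 calls among 38 members is close to the background. At an unadjusted p under 0.05 there was 1 member, Csrp2, against 1004 genes or 8.61% of the table. The groups did not overlap in 4.41% of all tested genes and in 0 members. Below 0 lay 51.2% of all tested genes, near the share of the members. In sorted bulk samples, fewer cells of a contractile kind and less RNA per cell cannot be told apart.

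**Figure D1:**
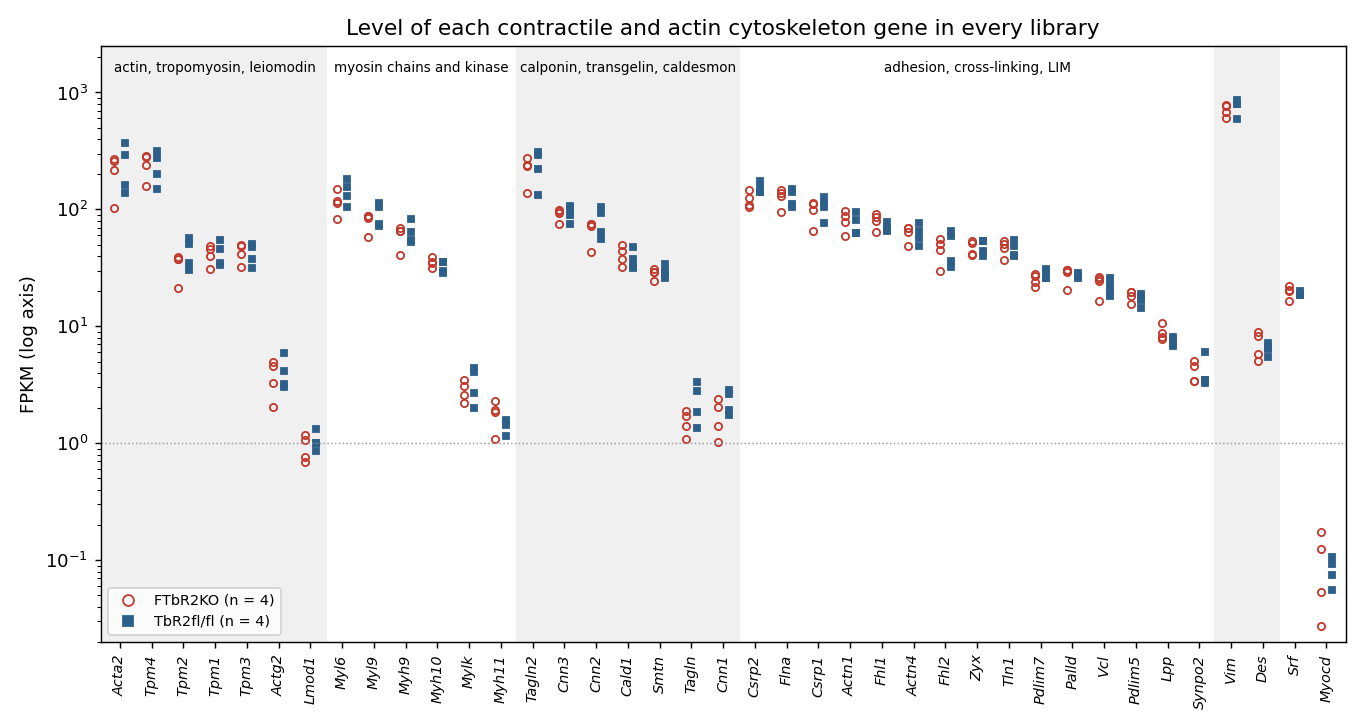
FPKM (log axis) of each of the 39 genes in every library, grouped by role, with red circles for the 4 FTbR2KO and blue squares for the 4 TbR2fl/fl libraries. Vim is the most abundant and Myocd, at 0.0273 to 0.173 FPKM, is far below the dotted line at 1 FPKM; the colours overlap in every column.

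The promoters of the set are shown before the levels because Srf, the factor that binds CArG boxes, is itself a member. RefSeq promoter windows of 300 bases (250 before and 50 after the gene start, build GRCm38.p6) were found for 34 of the 39 members, 44 windows in all, with no entry matched for Actg2, Csrp2, Myh11, Myocd and Tagln. A CArG box (2 C, then 6 bases that are each A or T, then 2 G, a pattern that is its own reverse complement and so covers both strands) stood in 8 of the 44 windows (18.2%), against 535 of 32851 promoter windows in the mouse table (1.63%). The 8 windows belong to 7 genes, Srf, Myl9, Myl6, Cnn2, Vcl, Fhl1 and Fhl2, the last with a box at each of 2 start sites. The match is by letters alone and shows neither binding nor use. It is strict, so a stretch with a G or C among the 6 inner bases is not counted. The Acta2 window holds such stretches, ccctatatgg and ccttgtttgg, and is therefore listed without a match. Windows without a match show only that the strict pattern is not in those 300 bases, not that they lack a CArG-like element.

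Windows of 6 of these genes are printed 5′ to 3′ on the gene's strand with the boxes in capitals. The first 5 were taken because the genes are a regulator, a motor subunit, an actin-binding protein, an adhesion protein and a LIM protein. Fhl1 was added as a gene whose correlation with Acta2 across libraries was negative (r = -0.40, adjusted exact permutation p = 0.537). Its window at another start holds no box. Whether a box goes with the correlation to Acta2 was not tested.
Srf (chr17:46556113-46556412, minus strand, boxes beginning 82 and 62 bases before the start): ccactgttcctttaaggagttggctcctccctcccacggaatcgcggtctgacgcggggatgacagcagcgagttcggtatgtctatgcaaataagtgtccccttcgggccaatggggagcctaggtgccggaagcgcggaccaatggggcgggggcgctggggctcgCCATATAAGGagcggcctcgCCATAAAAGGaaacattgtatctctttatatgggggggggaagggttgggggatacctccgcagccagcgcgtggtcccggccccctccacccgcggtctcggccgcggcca
Myl9 (chr2:156775214-156775513, plus strand, box 161 bases before the start): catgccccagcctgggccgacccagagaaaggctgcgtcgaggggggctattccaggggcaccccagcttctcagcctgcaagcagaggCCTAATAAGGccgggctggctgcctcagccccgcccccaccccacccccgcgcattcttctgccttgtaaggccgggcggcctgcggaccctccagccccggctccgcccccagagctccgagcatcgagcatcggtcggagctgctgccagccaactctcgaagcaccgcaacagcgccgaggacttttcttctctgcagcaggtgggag
Cnn2 (chr10:79988350-79988649, plus strand, box 56 bases before the start): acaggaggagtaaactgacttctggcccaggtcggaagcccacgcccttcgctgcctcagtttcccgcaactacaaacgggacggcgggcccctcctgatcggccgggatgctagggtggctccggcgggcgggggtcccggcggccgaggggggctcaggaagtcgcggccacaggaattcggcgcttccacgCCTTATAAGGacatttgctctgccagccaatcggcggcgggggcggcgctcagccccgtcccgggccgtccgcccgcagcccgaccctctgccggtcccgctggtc
Vcl (chr14:20929148-20929447, plus strand, box 227 bases before the start): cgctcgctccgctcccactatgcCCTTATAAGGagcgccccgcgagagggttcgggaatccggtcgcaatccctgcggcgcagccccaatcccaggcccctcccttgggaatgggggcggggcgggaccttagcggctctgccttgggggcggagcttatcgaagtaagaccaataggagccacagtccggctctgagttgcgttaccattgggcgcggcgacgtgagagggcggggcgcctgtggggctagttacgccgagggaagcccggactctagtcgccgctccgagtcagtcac
Fhl2 (chr1:43163912-43164211, minus strand, box 31 bases before the start): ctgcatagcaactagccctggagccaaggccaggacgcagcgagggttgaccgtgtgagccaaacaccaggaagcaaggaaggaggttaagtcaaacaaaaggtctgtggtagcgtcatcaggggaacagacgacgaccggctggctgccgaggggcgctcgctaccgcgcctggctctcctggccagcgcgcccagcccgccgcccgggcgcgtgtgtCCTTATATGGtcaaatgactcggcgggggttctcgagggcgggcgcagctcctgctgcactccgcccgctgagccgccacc
Fhl1 (chrX:56779433-56779732, plus strand, box 102 bases before the start): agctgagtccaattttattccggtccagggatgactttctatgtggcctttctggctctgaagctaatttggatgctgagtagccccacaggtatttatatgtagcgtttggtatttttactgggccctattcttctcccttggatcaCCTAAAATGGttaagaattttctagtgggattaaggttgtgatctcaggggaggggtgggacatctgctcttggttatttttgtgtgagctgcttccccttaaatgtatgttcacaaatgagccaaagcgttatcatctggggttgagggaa
The Myl6 box lay 50 bases and the box at the other Fhl2 start 96 bases before the start.

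Among the filament genes, Acta2 (chr19:34241090-34255336, minus strand) encodes the smooth muscle actin of stress fibres. Its FPKM was 103, 269, 261 and 217 in FTbR2KO libraries 1 to 4 and 139, 293, 160.2 and 367 in TbR2fl/fl libraries 5 to 8. The lowest value was in FTbR2KO 1 and the highest in TbR2fl/fl 8, while FTbR2KO 2 to 4 lay between the lower and the upper pair of controls. On the log2 scale FTbR2KO differed by -0.15 (95% confidence interval -1.02 to 0.72, SE 0.38, adjusted p = 0.930 by limma), and the sign turned without FTbR2KO 1 (0.16) or without TbR2fl/fl 8 (0.09). The scatter within groups, an SD of 0.66 on the log2 scale, was larger than that of 98.3% of the tested genes. Acta2 made up 17.8% ± 3.71 of the summed FPKM of 6 actin genes in FTbR2KO and 18.6% ± 3.54 in control libraries (SD, n = 4 each, exact two-sided permutation p = 0.771, a comparison chosen after its values were seen). The cytoplasmic actins, which are no members, were the bulk of the rest, with Actb at 523 ± 83.5 against 572 ± 157 FPKM and Actg1 at 415 ± 70.7 against 429 ± 102 FPKM.

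Actg2, the γ actin of visceral smooth muscle, was a minor species at 2.03, 4.58, 4.94 and 3.26 FPKM in FTbR2KO and 3.04, 4.11, 3.23 and 5.89 FPKM in control libraries. Its order of libraries was close to that of Acta2 (Spearman's rank coefficient 0.90), and since actin coding sequences are nearly identical, part of these reads could belong to another actin. Lmod1, a leiomodin that nucleates actin filaments in smooth muscle, sat at the floor of the test with 1.07, 1.17, 0.769 and 0.687 FPKM in FTbR2KO and 1.00, 0.860, 1.01 and 1.32 FPKM in controls. Neither gene separated the groups, with limma adjusted p-values of 0.899 for Actg2 and 0.840 for Lmod1.

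Tropomyosins lie along actin filaments and set which proteins can bind them. Tpm1 was at 30.7, 45.9, 48.3 and 39.8 FPKM in FTbR2KO and 33.7, 45.7, 34.7 and 54.8 FPKM in control libraries. The 2 lowest values came one from each group, FTbR2KO 1 and TbR2fl/fl 5. Tpm2, which encodes β-tropomyosin, was at 21.2, 37.9, 38.8 and 37.6 FPKM in FTbR2KO and 30.0, 50.5, 35.1 and 57.0 FPKM in controls. FTbR2KO 2 to 4 lay close together, FTbR2KO 1 lay far below them, and TbR2fl/fl 6 and 8 stood above all of them. The log2 fold change of Tpm2 was -0.33 (SE 0.25, 95% confidence interval -0.89 to 0.22, adjusted p = 0.716 by limma). The most abundant tropomyosin was Tpm4, a form typical of non-muscle cells, at 242 ± 60.0 FPKM against 235 ± 73.9 FPKM, and Tpm3 averaged 43.0 and 41.9 FPKM.

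The make-up of the tropomyosin pool, unlike the level of any member, did not overlap between the genotypes. Tpm2 contributed 8.79%, 9.02%, 9.30% and 10.4% of the summed FPKM of Tpm1 to Tpm4 in FTbR2KO libraries 1 to 4 and 12.3%, 12.0%, 11.3% and 12.0% in TbR2fl/fl libraries 5 to 8. All 4 FTbR2KO shares lay below all 4 control shares, with means of 9.39% ± 0.735 and 11.9% ± 0.413 (SD, n = 4 each), a difference of -2.52 percentage points. A share within one library does not depend on how the library was scaled. The exact two-sided permutation p was 0.0286, the smallest that 4 against 4 libraries can give, and 0.143 after Benjamini-Hochberg adjustment over the 10 gene families compared this way, so the difference did not pass the correction. Leaving out any 1 library left the difference between -2.87 and -2.32 points. Tpm4 held 66.9% and 64.5% of the pool, Tpm1 11.6% and 11.8%, and Tpm3 12.1% and 11.8% in FTbR2KO and control libraries.

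**Figure D2:**
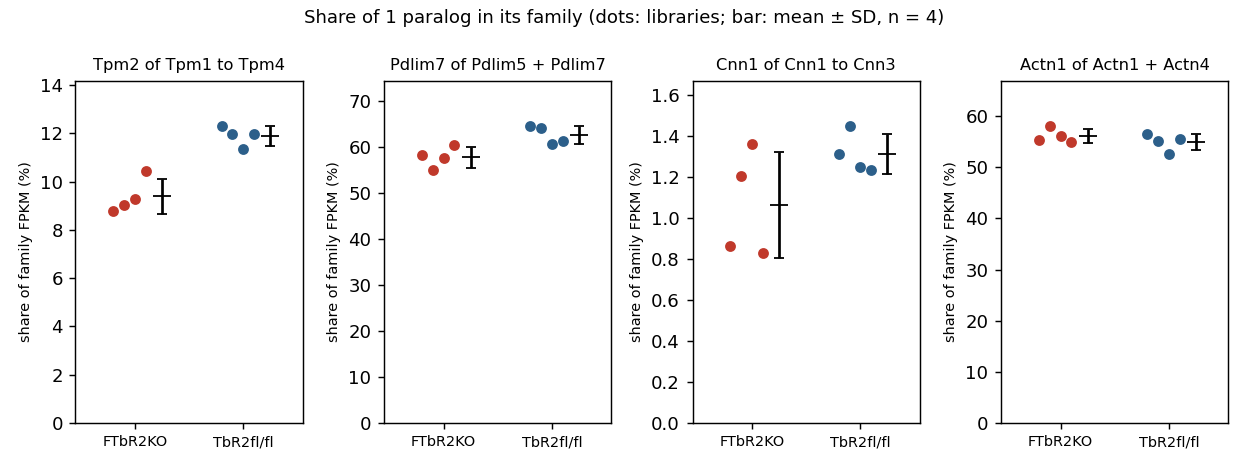
Share of one paralog in the summed FPKM of its family (percent, axes from 0) in each library, with the mean and SD beside the dots (red FTbR2KO, blue TbR2fl/fl, n = 4 each). The groups do not overlap for Tpm2 (8.79 to 10.4% against 11.3 to 12.3%) and Pdlim7 (54.9 to 60.3% against 60.6 to 64.6%), while they overlap for Cnn1 and Actn1.

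Among the actin-binding regulators, the smooth muscle forms of transgelin and calponin were scarce beside their paralogs. Tagln, the transgelin used as a smooth muscle marker, was at 1.39, 1.71, 1.09 and 1.87 FPKM in FTbR2KO and 1.35, 2.79, 1.87 and 3.34 FPKM in controls. The 2 highest values were controls, and the lowest control lay within the FTbR2KO range. Its log2 fold change of -0.38 (SE 0.19, 95% confidence interval -0.81 to 0.055, limma adjusted p = 0.604) was the lowest of the set and rested on 235 and 501 reads. Of the exonic bases of Tagln, 67.9% are shared with Pcsk7 and Gm48529 on the opposite strand, and whether the counting used strand is not stated, so the reads of these genes may be mixed. Pcsk7 was at 5.23 and 5.42 FPKM. Tagln2, the transgelin of non-muscle cells, was far more abundant at 222 ± 59.5 against 239 ± 79.9 FPKM, so Tagln made up 0.725% and 0.964% of the pair.

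Calponins bind actin and dampen myosin activity. Cnn1, the smooth muscle calponin, was at 1.03, 2.06, 2.39 and 1.41 FPKM in FTbR2KO and 1.74, 2.86, 1.93 and 2.66 FPKM in controls. The 2 lowest values were FTbR2KO and the 2 highest were controls, with overlap between (log2 fold change -0.29, SE 0.18, adjusted p = 0.654 by limma). Cnn2 and Cnn3 carried almost all calponin FPKM, Cnn2 with 66.3 ± 15.3 against 79.5 ± 23.8 FPKM and Cnn3 with 91.1 ± 10.8 against 93.3 ± 14.2 FPKM. Cald1, which encodes caldesmon, averaged 41.1 and 37.3 FPKM, and Smtn, which encodes smoothelin, 28.4 and 29.5 FPKM. Of the 7 actin-binding regulators 6 had a fold change below 0 on the deposited scale and 4 after quantile normalization, with 0 called under either.

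Non-muscle myosin II is the motor of stress fibres, a heavy chain pair with regulatory and essential light chains. Myl9, a regulatory light chain whose phosphorylation starts contraction, was at 57.9, 87.7, 88.5 and 83.8 FPKM in FTbR2KO and 72.3, 105, 75.2 and 113 FPKM in control libraries. FTbR2KO 2 to 4 fell between the lower and the upper pair of controls (log2 fold change -0.19, SE 0.19, adjusted p = 0.785 by limma). Myl6, an essential light chain, was at 83.1, 114, 118 and 148 FPKM in FTbR2KO and 106, 154, 131 and 182 FPKM in controls. It had a log2 fold change of -0.31 (SE 0.21, limma adjusted p = 0.687) with overlapping groups.

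Myh9, the heavy chain of non-muscle myosin IIA, was at 41.0, 68.7, 65.3 and 65.2 FPKM in FTbR2KO and 52.1, 64.6, 54.5 and 83.5 FPKM in controls. Myh10, the IIB heavy chain, was flatter at 35.6, 39.5, 31.7 and 35.0 FPKM in FTbR2KO and 35.7, 29.5, 35.7 and 28.7 FPKM in controls. The 2 lowest Myh10 values were TbR2fl/fl 6 and 8, the libraries with the highest Acta2. Log2 fold changes were -0.09 (SE 0.20) for Myh9 and 0.13 (SE 0.11) for Myh10, with limma adjusted p-values of 0.920 and 0.743. Myh9 made up 61.2% and 64.8% of the 3 heavy chains measured, Myh10 36.9% and 33.8%, and Myh11 1.87% and 1.48%.

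Myh11, the smooth muscle heavy chain, stood at 1.93, 2.29, 1.86 and 1.09 FPKM in FTbR2KO and 1.44, 1.16, 1.53 and 1.59 FPKM in controls, with 3 of 4 FTbR2KO libraries above every control and the fourth below them all. Mylk encodes the kinase that phosphorylates the regulatory light chain. It was at 2.60, 3.09, 3.44 and 2.20 FPKM in FTbR2KO and 4.38, 2.67, 2.00 and 4.05 FPKM in controls, where the lowest and the highest of all 8 values were both controls. Limma adjusted p-values were 0.728 for Myh11 and 0.866 for Mylk.

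Focal adhesion and cross-linking proteins tie actin bundles to each other and to integrins. Csrp2, a LIM protein of smooth muscle and mesenchymal cells, had the smallest unadjusted p of the set. It was at 105, 109.7, 124 and 148 FPKM in FTbR2KO and 140.3, 175, 140.3 and 157 FPKM in control libraries, and FTbR2KO 4 exceeded 2 controls. Its log2 difference was -0.34 (95% confidence interval -0.63 to -0.036, SE 0.13), with an unadjusted limma p of 0.0318 and an adjusted p of 0.571. The exact two-sided permutation p for the means of log2(FPKM + 1) was 0.0857. It thus did not pass the test. Csrp1, its paralog, averaged 96.6 and 106 FPKM.

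Lpp, a LIM protein of focal adhesions related to zyxin, had the highest fold change of the set on the log2(FPKM + 1) scale. It was at 7.85, 10.6, 8.69 and 8.18 FPKM in FTbR2KO and 8.18, 7.53, 6.83 and 7.32 FPKM in controls, so that 3 FTbR2KO libraries exceeded every control, FTbR2KO 4 by less than the printed precision. The log2 difference was 0.21 (SE 0.098, adjusted p = 0.591 by limma). With 0.1 instead of 1 added to FPKM it was 0.23, below the 0.27 of Myh11. Zyx itself, the zyxin gene, averaged 46.8 and 47.8 FPKM.

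Pdlim5 and Pdlim7 encode PDZ and LIM domain proteins that bind α-actinin and actin filaments. Pdlim7 was at 21.8, 23.9, 26.9 and 27.9 FPKM in FTbR2KO and 26.0, 30.9, 26.0 and 29.7 FPKM in controls. Pdlim5 was at 15.6, 19.6, 19.8 and 18.3 FPKM in FTbR2KO and 14.2, 17.3, 16.9 and 18.8 FPKM in controls. Each gene overlapped between the groups and the log2 fold changes had opposite signs, -0.16 (SE 0.10) for Pdlim7 and 0.12 (SE 0.11) for Pdlim5. Pdlim7 made up 58.3%, 54.9%, 57.5% and 60.3% of the pair in FTbR2KO libraries and 64.6%, 64.1%, 60.6% and 61.2% in controls. These shares did not overlap, although FTbR2KO 4 and TbR2fl/fl 7 were adjacent, and the difference in means was -4.86 percentage points (57.8% ± 2.26 against 62.6% ± 2.02, SD, n = 4 each, exact two-sided permutation p = 0.0286, adjusted over the 10 families 0.143). Leaving out any 1 library left it between -5.72 and -3.89 points. In the other 8 families the shares of the 2 groups overlapped.

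Fhl1, a LIM-only protein of muscle, was at 90.6, 79.2, 85.8 and 63.8 FPKM in FTbR2KO and 66.6, 70.2, 78.2 and 65.4 FPKM in controls. FTbR2KO 1, the library with the least Acta2, had the most Fhl1. Its paralog Fhl2, which can bind SRF, averaged 45.2 and 48.1 FPKM, with 29.9 FPKM in FTbR2KO 1 and 64.7 FPKM in TbR2fl/fl 8 as the extremes. Fhl2 therefore ranged from 24.8% to 49.7% of the pair, with 36.1% ± 8.56 in FTbR2KO and 39.9% ± 9.29 in control libraries (SD, n = 4 each, exact permutation p = 0.571).

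The remaining adhesion genes differed little in their means. The filamin A gene Flna averaged 127 and 127 FPKM, the α-actinin genes Actn1 80.5 and 75.6 FPKM and Actn4 62.6 and 61.8 FPKM, and the talin gene Tln1 46.8 and 46.0 FPKM in FTbR2KO and control libraries. Vcl, the vinculin gene, averaged 23.2 and 21.6 FPKM, although 25.5% of its exonic bases are shared with Ap3m1 on the opposite strand. Palld, encoding the actin bundler palladin, averaged 27.7 and 27.0 FPKM, and Synpo2, encoding a synaptopodin of muscle Z-discs, 4.09 and 4.07 FPKM. Of the 15 adhesion and cross-linking genes 9 had a fold change above 0 and 6 below, with a median of 0.023 and 0 called.

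Intermediate filaments complete the set. Vim, encoding vimentin, the intermediate filament of mesenchymal cells, was the most abundant member at 606, 684, 774 and 762 FPKM in FTbR2KO and 590, 858, 791 and 800.5 FPKM in controls. Des, encoding the muscle filament desmin, was at 5.77, 8.86, 8.30 and 5.10 FPKM in FTbR2KO and 6.45, 6.61, 5.49 and 7.18 FPKM in controls, the FTbR2KO libraries holding both extremes. Des made up 0.987% and 0.856% of the pair. Limma adjusted p-values were 0.872 for Vim and 0.899 for Des.

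Of the regulators, Srf had the smallest scatter within groups of the tested members (SD 0.13 on the log2 scale). It was at 16.4, 20.1, 22.3 and 20.6 FPKM in FTbR2KO and 18.3, 18.6, 19.9 and 18.8 FPKM in control libraries (log2 fold change 0.06, SE 0.097, adjusted p = 0.880 by limma). The controls lay within the FTbR2KO range. Myocd, encoding myocardin, was next to undetected at 0.0538, 0.125, 0.173 and 0.0273 FPKM in FTbR2KO and 0.0742, 0.0551, 0.106 and 0.0930 FPKM in controls, 46 and 55 reads in all. It did not reach the level needed for the test.

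**Figure D3:**
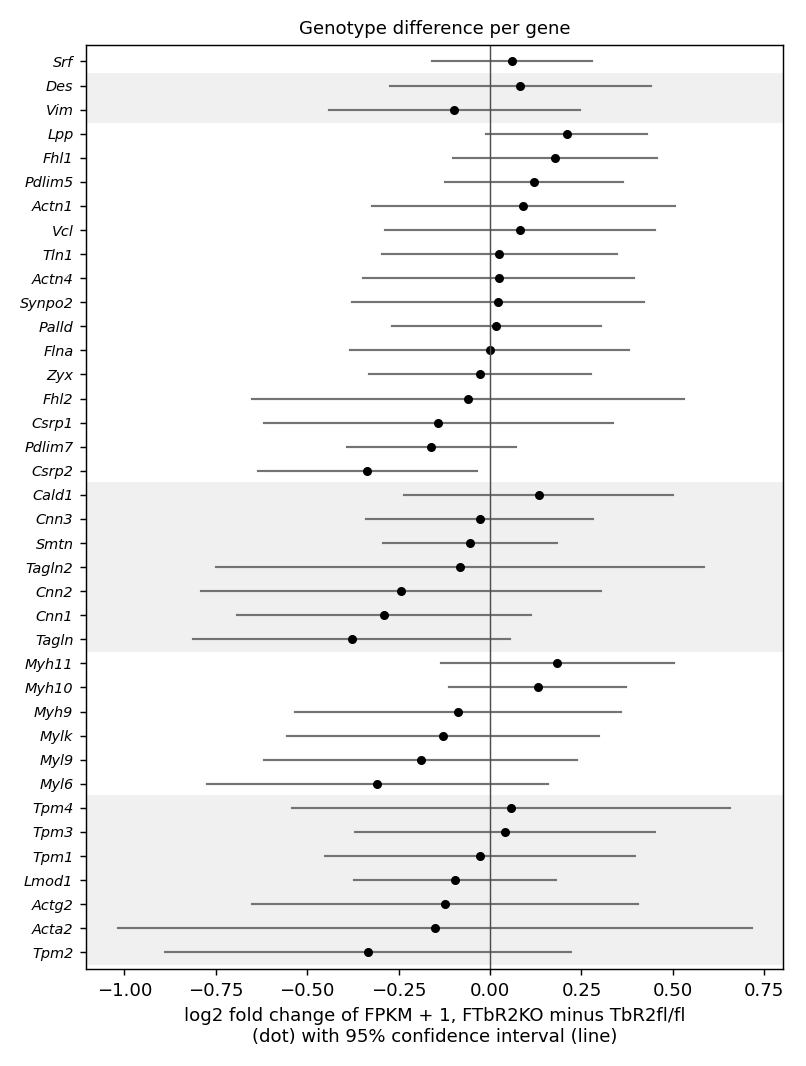
Log2 fold change (FTbR2KO minus TbR2fl/fl on the log2(FPKM + 1) scale, dot) with its 95% confidence interval (line) for the 38 tested members, shaded by role. Every interval but that of Csrp2 (-0.63 to -0.036) includes 0, and the interval of Acta2 (-1.02 to 0.72) is the widest.

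Of 27 general actin regulators 0 were called, 14 above and 13 below 0, with Tmsb10, an actin-sequestering thymosin, at 270.4 ± 46.9 against 359 ± 52.0 FPKM (a log2 difference of -0.41 with SE 0.16 and adjusted p = 0.571 by limma) and Svil, the supervillin gene, at 12.8 and 11.1 FPKM. Of 15 tested among 17 further contractile genes 0 were called, 6 above and 9 below 0, with Pdlim2, a relative of Pdlim7, at 19.9 ± 3.43 against 25.9 ± 1.75 FPKM (a log2 difference of -0.37 with SE 0.12 and adjusted p = 0.571 by limma) and Filip1l at 16.3 and 14.3 FPKM. An unadjusted limma p under 0.05 was reached by 1 gene of each list, beside 8.61% of all tested genes.

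Across libraries most members varied together with Acta2. Of the 37 members tested beside Acta2, 33 had a positive Pearson correlation with it over the 8 libraries, with a median r of 0.84 beside 0.084 over all 11666 other tested genes. An r of at least 0.9 was reached by 16 of the 37 members and by 2.7% of all tested genes. The exact permutation p of r, adjusted over all 11666 genes, was under 0.05 with a positive r for 15 members and for 1.82% of the tested genes. That count was 0 after quantile normalization and in 6 of the 8 settings without a single library. The share of all tested genes was also 0% in each of these. It was 11 members without FTbR2KO 2, beside 2.07% of all tested genes, and 4 without FTbR2KO 3, beside 0.334%. The points share 2 genotypes, unequal depth and the authors' scaling. Library averages of the 38 members' log2 levels were 4.74, 5.21, 5.18 and 5.08 in FTbR2KO and 4.88, 5.22, 4.97 and 5.34 in control libraries.

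The 5 members closest to Acta2 were Tpm1 (r = 0.98, Spearman's rank coefficient 0.90), Myl9 (r = 0.97, Spearman 0.98), Actn4 (r = 0.97, Spearman 0.93), Cnn3 (r = 0.97, Spearman 1.00) and Myh9 (r = 0.97, Spearman 0.86). Their permutation p-values of r were 0.000198, 4.96e-05, 0.000223, 2.48e-05 (the smallest that the pairings can give) and 0.000372, with adjusted values of 0.0263 to 0.0368, while those of the rank coefficient did not pass the adjustment (0.0964 to 0.152). The other 11 at or above 0.9 were Cnn2, Fhl2, Tln1, Tpm2, Tpm3, Tpm4, Flna, Actg2, Actn1, Tagln2 and Vcl. The 3 members least like Acta2 were Myh10 (r = -0.56, Spearman -0.55), Synpo2 (r = -0.45, Spearman -0.12) and Fhl1 (r = -0.40, Spearman -0.33), with adjusted permutation p-values of r of 0.347, 0.475 and 0.537. The scarce smooth muscle genes were scattered, with r of 0.94 for Actg2, 0.84 for Cnn1, 0.61 for Tagln, 0.24 for Mylk, 0.065 for Lmod1 and -0.088 for Myh11.

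**Figure D4:**
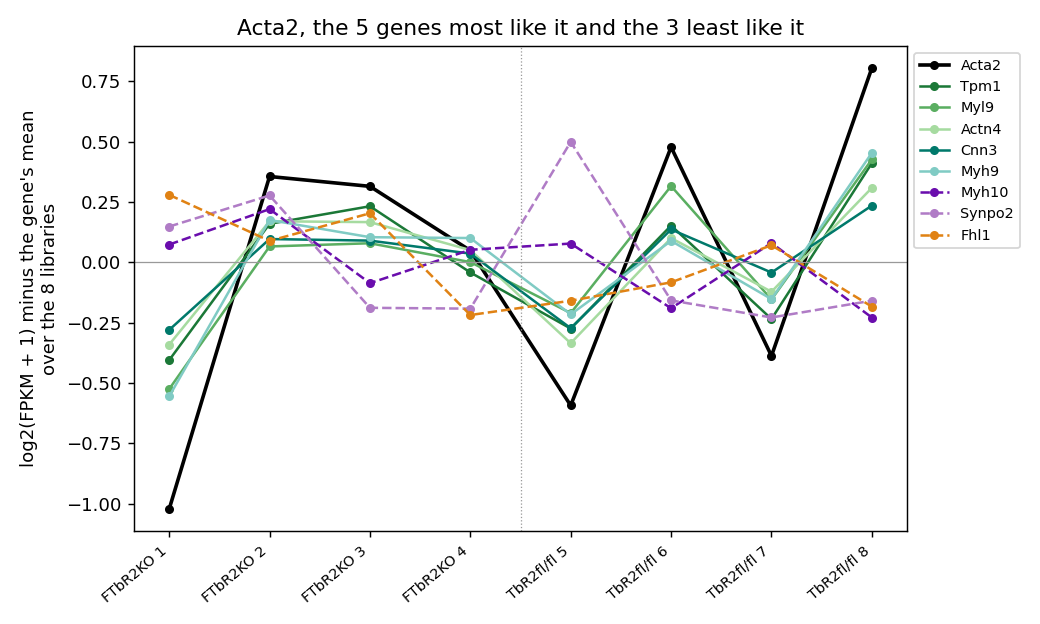
Log2(FPKM + 1) minus the gene's mean over the 8 libraries for Acta2 (black), the 5 members most like it (solid) and the 3 least like it (dashed), with lines joining the values of 1 gene and a dotted line between the genotypes. Acta2 and its followers are low in FTbR2KO 1 and TbR2fl/fl 5, less so in TbR2fl/fl 7, and high in TbR2fl/fl 8. Myh10, Synpo2 and Fhl1 instead lie above their means in FTbR2KO 1 and below them in TbR2fl/fl 8.

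Of the libraries, FTbR2KO 1 stood out as low. It was the lowest of the 8 for 22 of the 38 members, against 18.7% of all tested genes, whereas TbR2fl/fl 5 was the lowest for 6 members, against 20.1% of all tested genes. TbR2fl/fl 8 was the highest for 20 members, against 16.3% of all tested genes. Without FTbR2KO 1 alone 12 of 37 members reached an r of 0.9, beside 1.83% of all tested genes, and the members' median r was 0.75, while without TbR2fl/fl 5 alone 16 did, beside 3.23%, with a median of 0.84. These 2 libraries lay farthest from the median of Acta2 on the log2 scale, and leaving out both narrows the range of Acta2, which by itself can lower r. Then 9 of 37 members reached 0.9, beside 1.41% of all tested genes, with a median r of 0.66. Tpm1 (0.97), Cnn3 (0.99), Actn4 (0.95), Myl9 (0.94) and Myh9 (0.91) stayed above it, Mylk went from 0.24 to 0.88, Palld from 0.74 to 0.095, and Srf from 0.53 to -0.34. In the titles this pair carries neighbouring identifiers, but so do libraries of both genotypes outside the pair. The labels do not give the meaning of the identifiers. In FTbR2KO 1 and TbR2fl/fl 5 the library total implied by the deposited FPKM stood 7.90% and 6.12% above the reads assigned to genes. The other 6 libraries were at -3.47% to 0.573%, and the part of this difference in the pattern was not tested.

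**Figure D5:**
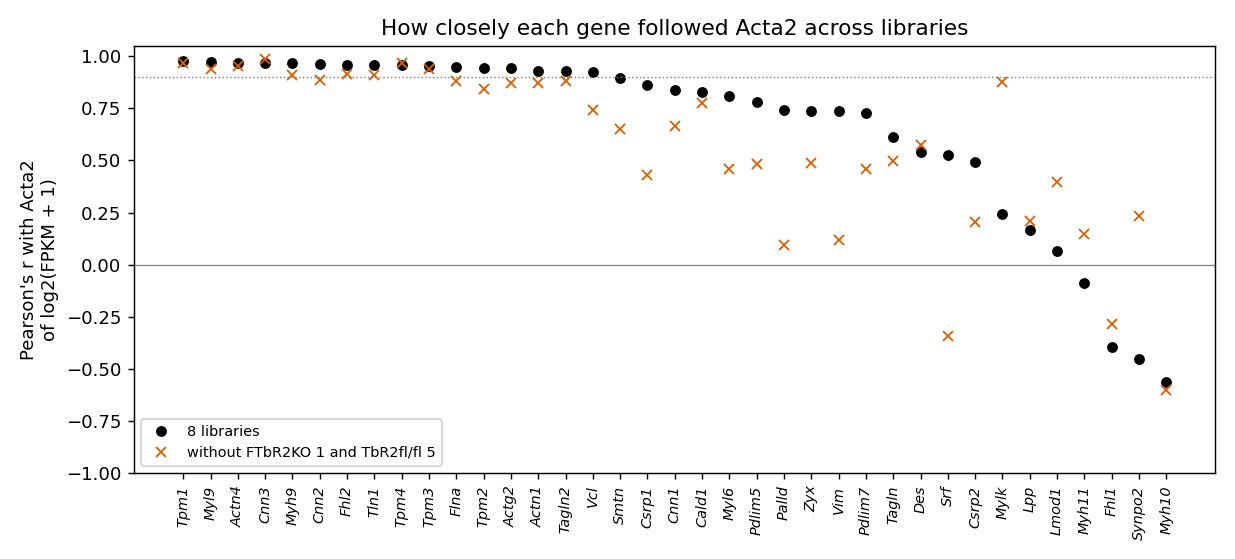
Pearson's r between each member and Acta2 on the log2(FPKM + 1) scale over 8 libraries (black dots) and over the 6 left without FTbR2KO 1 and TbR2fl/fl 5 (orange crosses), in order of r, with a dotted line at 0.9. Of the dots 16 lie above the line and of the crosses 9, and Srf passes from 0.53 to -0.34.

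Several genes outside the set moved with Acta2 in the same libraries. Actb and Actg1 both had r = 0.92. Of the 27 general actin regulators 13 reached 0.9, beside 2.7% of all tested genes. Their r ran from -0.90 to 0.99 with a median of 0.88. Of the 15 tested further contractile genes 3 reached 0.9, with r from -0.93 to 0.96 and a median of 0.16. Pdgfra, the sorting marker, ran the other way (r = -0.93, Spearman -0.90, adjusted permutation p of r 0.0478, and r = -0.79 without FTbR2KO 1 and TbR2fl/fl 5), at 85.6, 63.7, 57.1 and 57.1 FPKM in FTbR2KO and 71.1, 49.2, 64.4 and 45.5 FPKM in controls. Of 12 markers of pericytes and vascular smooth muscle cells 8 passed the level filter, and 6 of those 8 had a positive r, led by Mcam (0.95), Notch3 (0.88) and Cspg4 (0.82), while Vtn (-0.82) and Abcc9 (-0.62) were negative. That list summed to 60.5, 100.02, 97.0 and 75.3 FPKM in FTbR2KO and 70.2, 80.2, 65.6 and 92.3 FPKM in control libraries. Rergl was at 0 and Kcnmb1 under 1 FPKM in every library. The part of such cells in the levels of Acta2 and its followers was not tested.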

How the data were processed

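Poly(A) RNA of sorted PDGFRα+ cells was extracted with Trizol and made into libraries with the NEBNext Ultra kit, per the labels' protocols. Named without roles, per the submitters' processing notes, are HTSeq 0.6.1, Cufflinks 2.1.1, TopHat2 2.0 and CASAVA, and as builds GRCm38.p6 and mm10. The authors deposited FPKM for 54532 genes in 8 libraries, per the file headers. Every value, times gene length, came out as a whole number of reads within 0.01, which gave 16088616 to 28731923 reads per library. Median-of-ratios factors of the deposited values were 1 in every library, so the FPKM had been put on such a scale already.

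Genes with at least 1 FPKM in at least 4 libraries (11667) were tested on log2(FPKM + 1) with limma 3.58.1 in R 4.3.3 (trended variance, Benjamini-Hochberg over all tested genes, threshold 0.05, two-sided), a step checked on simulated data. Family shares were compared by exact permutation tests, adjusted over 10 families. Correlations with Acta2 have exact p-values over all 40320 pairings, adjusted over 11666 genes and not over the members alone as first planned. Shared exonic bases were computed from the annotation of the build the files use.

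The members, the gene lists (of the contractile machinery, of cell types and of immediate early genes; one list and one marker are not reported here) and the library pair FTbR2KO 1 and TbR2fl/fl 5 were chosen with earlier results of these data known. Named with values in every library were 16 members chosen by role and the 6 others with the smallest unadjusted p, and by group means the rest. In each other list reported the 2 genes with the smallest unadjusted p were named, for Acta2 the 5 members most and the 3 least like it, and Tgfbr2 as the targeted gene. Alternatives were another pseudocount, other filters, median-of-ratios, quantile and TPM scaling, array weights, limma voom with TMM factors on the recovered reads, and leaving libraries out. Single reads and strand were not analysed here.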

Additional observations from a re-analysis of the deposited data

Results flagged for a closer look

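Among the 78 groups of 4 values (39 members in each genotype) 6 held a value far from the other 3 of its group by Dixon's test. For independent groups chance gives about 1 in 20. The members varied together across libraries, so the count cannot be read against that rate, and the share over all tested genes is not given here. In 5 of the 6 the value apart was a low one in FTbR2KO 1. That library was also the lowest of the 8 for 18.7% of all tested genes. Cnn2 was at 43.48 FPKM there against 71.42 to 75.68 in the other FTbR2KO libraries, and Tpm2 at 21.23 against 37.57 to 38.79 FPKM. Myl9 was at 57.9 against 83.82 to 88.53 FPKM, Myh9 at 40.98 against 65.15 to 68.67 FPKM, and Palld at 20.56 against 29.16 to 30.6 FPKM. The last was a high value in a control, Synpo2 at 6.062 FPKM in TbR2fl/fl 5 against 3.265 to 3.48 FPKM in the other 3. In FTbR2KO 1 Pdgfra was at 85.6 FPKM, the highest of the 8 libraries, and its depth of 16088616 reads was the lowest. The part of either in these values was not tested.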

How the results depend on the processing

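Under all 18 alternatives 0 members and 0 genes of the other lists were called, and between 0 and 5 members had an unadjusted p under 0.05 (5 with array weights, 4 with TPM). No paired analysis was possible because the groups share no replicate numbers. TPM scaling moved the median of all genes by 0.15 (log2), and the fold changes under it were taken relative to that, but its p-values, the count of 4 included, still hold the shift. The members' median of -0.028 went to 0.0094 after quantile normalization (20 of 38 above 0), and ran from -0.11 (without TbR2fl/fl 5) to 0.11 (without FTbR2KO 1) when single libraries were left out. Signs that turned belonged to small, uncalled fold changes. Quantile normalization gave Tpm1 0.0103. Without FTbR2KO 1 and TbR2fl/fl 5, Tpm1 was at 0.0071 and Mylk at 0.0211. Without FTbR2KO 4 and TbR2fl/fl 8, the libraries nearly without Xist and a choice made after seeing the data, Acta2 was at 0.0505, Actg2 at 0.0677, Tpm1 at 0.1145, Myh9 at 0.0011, Mylk at 0.0471 and Lmod1 at 0.0259. Leaving out single libraries gave Acta2 -0.3740 to 0.1643, Actg2 -0.2506 to 0.0723, Tpm1 -0.1233 to 0.1051, Myh9 -0.1739 to 0.0831, Mylk -0.2859 to -0.0050, Lmod1 -0.1551 to -0.0341 and Des -0.0272 to 0.2041 (0.2517 without FTbR2KO 4 and TbR2fl/fl 8). The cause was not tested. The family shares kept their direction and 0 passed the correction in every setting run. The 16 members with an r of at least 0.9 to Acta2 became 9 without FTbR2KO 1 and TbR2fl/fl 5, beside 1.41% of all tested genes. They became 11 after quantile normalization, beside 1.21%. Without single libraries they were 12 to 19, where the share of all tested genes ran from 1.83% to 5.37%. The 15 with an adjusted p under 0.05 became 0 after quantile normalization and in 6 of the 8 settings without a single library. In each of these 0% of all tested genes passed with a positive r. Leaving out FTbR2KO 2 gave 11 members, beside 2.07% of all tested genes, and leaving out FTbR2KO 3 gave 4, beside 0.334%. With 1 library left out, 7 points also allow fewer small p-values. Depth limits Myocd, Lmod1, Tagln, Cnn1 and Actg2, each with at most 684 reads per group.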

Other observations

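Lists of other cells and states were read in the same libraries, and 0 of their tested genes were called by limma after adjustment. All 8 epicardial genes had a fold change above 0, and the list summed to 68.1 to 114.5 FPKM in FTbR2KO and 41.0 to 85.0 FPKM in control libraries (exact permutation p = 0.0857). In it Aldh1a2, an enzyme of retinoic acid synthesis, was at 74.1 ± 15.7 against 49.5 ± 16.7 FPKM and Msln, the mesothelin gene, at 5.34 ± 3.61 against 3.26 ± 2.35 FPKM (SD, n = 4 each). The 10 fibroblast genes summed to 12293 to 14952 FPKM in FTbR2KO and 14400 to 15795 FPKM in control libraries (exact permutation p = 0.0571), with Col1a1 at 3934 ± 424 against 5005 ± 283 FPKM and Col1a2 at 1553 ± 186 against 1898 ± 70.7 FPKM, both uncalled (limma adjusted p = 0.571 and 0.581). Col1a1 is the largest single part of that sum, and of the 10 genes 6 had a fold change above 0 and 4 below, with a median of 0.057. Of 7 endothelial genes 4 were under 1 FPKM throughout, and Tek, at 15.1 to 26.8 FPKM, made up most of the summed 19.3 to 25.7 and 18.2 to 28.5 FPKM.

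Among the mural genes Abcc9, a potassium channel subunit of pericytes, was at 4.87 ± 2.11 against 3.12 ± 0.652 FPKM and Kcnj8, its pore, at 2.85 ± 0.715 against 2.49 ± 0.481 FPKM. The cardiac actin gene Actc1 was at 1.78 ± 1.01 against 1.29 ± 0.421 FPKM, and the macrophage genes Cd68 at 4.60 ± 2.05 against 3.39 ± 1.43 FPKM and Lyz2 at 3.89 ± 1.30 against 4.43 ± 0.493 FPKM. The 9 immediate early and heat shock genes, several of which are also SRF targets, summed to 4424 to 4819 FPKM in FTbR2KO and 3838 to 6167 FPKM in control libraries, with Hspa1b at 229.9 ± 98.3 against 151 ± 77.6 FPKM and Ier2 at 289.9 ± 28.1 against 367 ± 110.4 FPKM. Of these 9 genes 0 reached an r of 0.9 with Acta2, beside 2.7% of all tested genes. A count of 0 among 9 is close to that share. Their median r was -0.11, beside 0.084 over all other tested genes.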
